A study of Mus musculus with 8 samples.

Results

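The incretin system was followed through 6 genes in the small intestine of mouse fetuses at stage E18.5. They were the hormone genes Gip and Gcg, the receptor genes Gipr, Glp1r and Glp2r, and the peptidase gene Dpp4. The members were chosen by name, as every non-control probe whose gene name in the array files equals one of these symbols. This gave 8 probes for 6 genes, among 55681 probes and 36161 gene names, and the 8 probes occupied 17 of 59305 non-control spots on each array. RNA of the whole small intestine was measured on 8 single-colour Agilent arrays, 4 controls and 4 mutants. The mutants were Rfx6 fl/fl Ngn3-cre, so both alleles of Rfx6, which encodes a transcription factor of endocrine cells, were floxed and Cre was driven by the endocrine progenitor gene Ngn3 (Neurog3). Controls 1, 3 and 4 were Rfx6 fl/+ and control 2 was Rfx6 fl/fl, with no Cre named for any control, so effects of Cre and of the Rfx6 deletion cannot be told apart. The study asked which genes of the endocrine cells of the intestine are under the control of Rfx6. All groups share the floxed allele, and the floxed exons are not given in the labels.

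GIP is secreted by K cells, an endocrine cell type of the upper intestine, and proglucagon, the product of Gcg, is made in L cells of the gut and alpha cells of the pancreas. Prohormone convertases cut proglucagon into GLP-1 and GLP-2 in the gut and into glucagon in the pancreas. GIP and GLP-1 are the incretins, released after a meal to raise insulin secretion, while GLP-2 supports growth of the intestinal lining. Their receptors are class B G protein-coupled receptors that act through cAMP, and DPP4, a membrane peptidase abundant on enterocytes, inactivates both incretins by trimming their amino ends.

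The probes that decide what could be read for Gip, Glp1r and Glp2r are printed here, 5′ to 3′, because their position or their letters bear on the values. Positions are those of the array files on genome build mm9, and exon and UTR annotation of that build was not used here. The single Gip probe (chr11:95886745-95887966, plus strand) covers 1222 bases of genome with 60 bases of sequence and so joins sequence on both sides of an intron.

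Gip probe: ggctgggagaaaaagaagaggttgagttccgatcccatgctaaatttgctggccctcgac

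One of the Glp2r probes (chr11:67525830-67535508, minus strand) likewise spans 9679 bases of genome.

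Glp2r intron-spanning probe: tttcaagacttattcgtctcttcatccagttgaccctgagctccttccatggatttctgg

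The Glp1r probes (chr17:31073261-31073320 and chr17:31073256-31073315, plus strand) lie 5 bases apart, overlap over 55 positions and differ at 3 of them, which are in capitals.

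Glp1r first probe: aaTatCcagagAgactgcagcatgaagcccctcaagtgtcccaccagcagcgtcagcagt
Glp1r second probe: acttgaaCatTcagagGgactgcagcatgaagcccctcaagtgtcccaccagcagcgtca

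The other members were read by 1 probe each, at chr2:62312685-62312744 for Gcg, chr7:19742486-19742545 for Gipr and chr2:62170062-62170121 for Dpp4, all on the minus strand. A further Glp2r probe lay at chr11:67519964-67520023, also on the minus strand.

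Levels are log2 processed intensity minus the log2 of the array's 75th percentile over non-control spots, so a level of 0 equals that percentile. The 75th percentile was 789 to 1023 intensity units, and the scanner software marked 59.7% to 69.9% of probes as well above background. The Rfx6 probe read -3.32, -3.20, -3.48 and -2.93 in controls 1 to 4 and -5.52, -3.37, -3.01 and -3.01 in mutants 1 to 4. Only mutant 1 was below the controls, and on that array alone the probe was not well above background. The difference of the group means was -0.50 (SE 0.52, limma adjusted p = 0.827). Whether this probe lies in the deleted part is not known, so it did not check the labels. Mutant 1 also stood apart over the tested genes, 1 probe each, with correlations of 0.975 to 0.980 with the other arrays. The highest correlation of each other array was 0.993 to 0.995. The labels number the samples without saying that each came from its own embryo, so the p-values measure the spread between these samples. In whole tissue, fewer cells of a type and less RNA per cell cannot be told apart.

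Gip was high in every control and dim in every mutant. Its level was 2.38, 1.96, 2.21 and 1.85 in controls 1 to 4. In mutants 1 to 4 it was -6.20, -6.41, -5.05 and -6.04. The groups were far apart, and among the mutants only mutant 3, the highest of them, was well above background. As intensity relative to the 75th percentile, Gip was 3.60 to 5.22 times that percentile in the controls and 0.0118 to 0.0302 times in the mutants. The controls averaged 2.10 ± 0.24 and the mutants -5.92 ± 0.60 (SD, n = 4 each). The fitted difference was -8.02 (SE 0.28, 95% confidence interval -8.67 to -7.38), with a limma p adjusted by the Benjamini-Hochberg method over 35472 tested probes of 9.03e-06. In 3 of the 4 mutants Gip was not well above background. The fold is therefore given as a bound against the lowest signal that was well above background on each array. That signal is not a detection limit: the second Glp1r probe, though not well above background, lay above it in mutants 1 and 2. Against that signal Gip was at least 213.5-fold lower in mutants, or at most 0.468% of the control level. The bound holds for this background correction only: with normexp, which keeps dim spots above 0, the fitted difference was -5.59, and with the authors' deposited table it was -5.61.

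Gcg fell to 9.32% of its control level and stayed measurable in the mutants. Its level was 1.42, 1.78, 1.84 and 1.46 in controls 1 to 4. It was -1.99, -1.58, -1.76 and -1.86 in mutants 1 to 4. The groups did not overlap, and the spread within each was small beside the gap. The probe was well above background on all 8 arrays, with 10 spots used on 7 arrays and 8 on mutant 3, and the SD of the spots within an array was 0.0398 to 0.119 on the log2 scale. The controls averaged 1.62 ± 0.22 and the mutants -1.80 ± 0.17 (SD, n = 4 each). The difference was -3.42 (SE 0.14, 95% confidence interval -3.74 to -3.11, limma adjusted p = 2.23e-05). This is a 10.7-fold fall, and the 95% confidence interval of the share left was 7.50 to 11.6%.

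Of the 7 member probes that could be tested, 2 passed the adjusted threshold of 0.05, those of Gip and Gcg, and both were lower in mutants. Among all tested probes 0.0366% were called lower and 0.00282% higher. The groups did not overlap for the same 2 of 7 member probes, against 1.52% of all tested probes with every mutant lower and 2.85% with every mutant higher. By size of difference, Gip ranked 1 and Gcg ranked 5 among all probes that were lower. The slide had rows of 2 controls and 2 mutants each. Within the rows Gcg differed by -3.39 and -3.46. The fitted Gip differences were -8.47 and -7.57. They rest mostly on mutant values not well above background and so give a direction rather than a size. With the row as a block the adjusted p was 4.32e-05 for Gip and 0.000179 for Gcg.

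**Figure D1:**
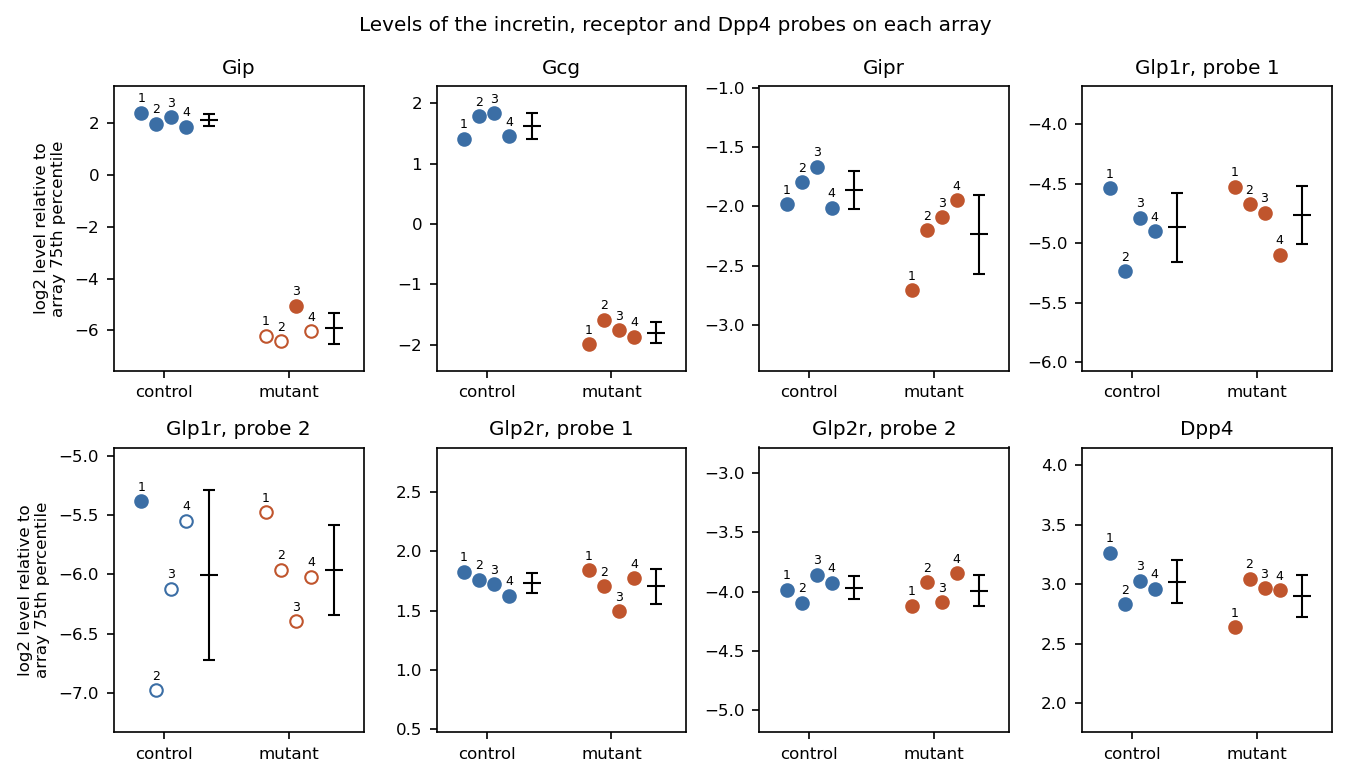
Level of each member probe on each array (log2 processed intensity relative to the array's 75th percentile), with controls and mutants side by side. Bars show the mean and SD, points are labelled with the replicate number, each panel has its own scale (probe 2 of Glp2r is the intron-spanning one), and open circles were not well above background; Gip and Gcg separate the groups, and the receptor and Dpp4 probes overlap.

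The fall of Gip was larger than that of Gcg. Within each array, Gip was raised where needed to the lowest signal well above background, and the Gcg level was subtracted. This within-array difference was 0.97, 0.18, 0.37 and 0.39 in controls 1 to 4 and -3.71, -4.56, -3.29 and -3.79 in mutants 1 to 4. All mutants lay below all controls. The group means differed by -4.31, with a two-sided exact permutation p of 0.0286, the smallest that the 70 splits of 8 arrays into 4 and 4 can give. Raising Gip makes this size a lower bound under this processing. With another background correction (normexp) the size was -2.44, and with the authors' deposited table it was -2.48.

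Control 2, the control with both alleles floxed, lay within the range of the other controls for Gip and Gcg. The same held for Gipr and for the first Glp2r probe. It was below the other controls for Dpp4, for both Glp1r probes and for the intron-spanning Glp2r probe.

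Gipr, the receptor for GIP, was above background on all 8 arrays and its groups overlapped. Its level was -1.98, -1.80, -1.67 and -2.01 in controls 1 to 4 and -2.70, -2.20, -2.09 and -1.95 in mutants 1 to 4. Mutant 1 was the lowest and mutant 4 was above 2 of the controls. The difference was -0.37 (SE 0.17, 95% confidence interval -0.76 to 0.02, limma adjusted p = 0.826), from -1.86 ± 0.16 in controls to -2.24 ± 0.33 in mutants (SD, n = 4 each). The mutant mean was 77.2% of the control mean, with an interval of 58.9 to 101.2% that includes no change. Without mutant 1 the difference was -0.22.

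Glp1r, the GLP-1 receptor, was dim. The first of its probes read -4.54, -5.24, -4.79 and -4.90 in controls 1 to 4 and -4.52, -4.67, -4.75 and -5.10 in mutants 1 to 4. The groups overlapped throughout. The difference was 0.10 (SE 0.18, 95% confidence interval -0.30 to 0.51, limma adjusted p = 0.880), and the probe was well above background on all 8 arrays. The second Glp1r probe, which shares most of its letters with the first as printed above, was well above background on control 1 alone and was not tested. Its values were -5.38, -6.97, -6.12 and -5.55 in controls 1 to 4 and -5.47, -5.96, -6.39 and -6.02 in mutants 1 to 4. Neither probe separated the groups.

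Glp2r, the receptor for GLP-2, which in the gut wall is known from enteric neurons and subepithelial cells, overlapped between the groups by both of its probes. The first probe read 1.83, 1.76, 1.72 and 1.63 in controls 1 to 4 and 1.84, 1.71, 1.5 and 1.78 in mutants 1 to 4. The difference was -0.03 (SE 0.10, 95% confidence interval -0.27 to 0.21, limma adjusted p = 0.945). The intron-spanning probe read -3.98, -4.09, -3.86 and -3.93 in controls 1 to 4 and -4.12, -3.92, -4.09 and -3.85 in mutants 1 to 4. Its difference was also -0.03 (SE 0.10, 95% confidence interval -0.26 to 0.20, limma adjusted p = 0.948). As a share of the control mean, the intervals of the mutant mean were 83.1 to 115.3% for the first probe and 83.5 to 115.1% for the intron-spanning one. Both probes were well above background on all 8 arrays. Their levels were far apart, with control means of 1.74 for the first probe and -3.96 for the intron-spanning one. Which of them reports the Glp2r transcript was not tested.

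Dpp4 was well above background on all arrays and its groups overlapped. Its level was 3.27, 2.83, 3.03 and 2.96 in controls 1 to 4 and 2.64, 3.04, 2.96 and 2.95 in mutants 1 to 4. Mutant 1 was the lowest array, and the other mutants lay among the controls. The difference was -0.12 (SE 0.13, 95% confidence interval -0.42 to 0.17, limma adjusted p = 0.83), which put the mutant mean at 91.9% of the control mean (95% confidence interval 74.7 to 112.9%). The 10 enterocyte markers, read beside Dpp4 because enterocytes carry it, had a mean log2 level of 6.05 to 6.19 in controls and 6.03 to 6.25 in mutants, and none was called.

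**Figure D2:**
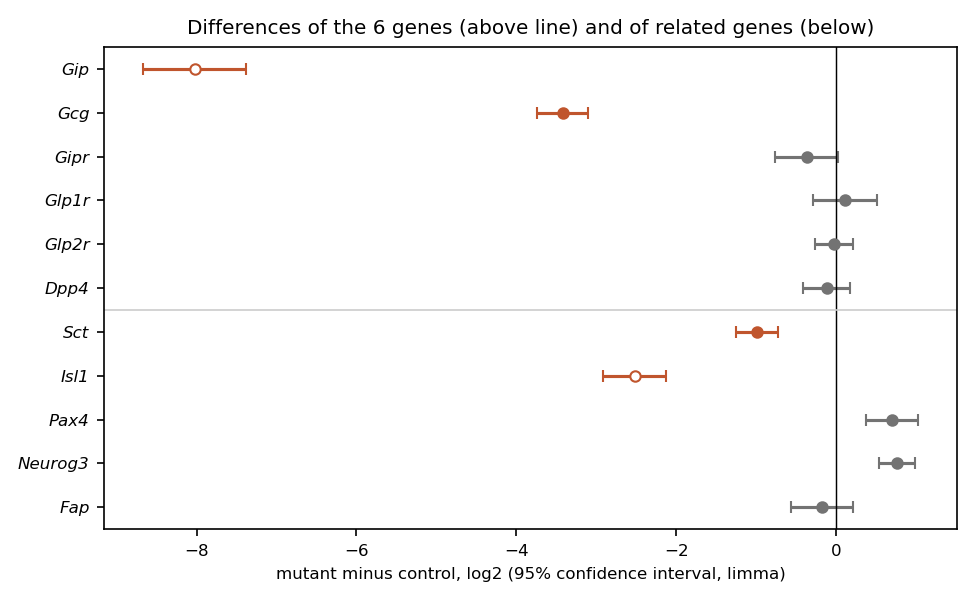
Difference of mutant minus control (log2) with its 95% confidence interval from limma, for the 6 members, read by their highest tested probe, and for 5 related genes below the line. Coloured points passed the adjusted threshold. Open points (Gip and Isl1) are fitted values that rest in part on mutant arrays not well above background. The intervals are not adjusted for the number of probes, and those of Gipr, Glp1r, Glp2r and Dpp4 include 0.

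Gcg and Dpp4 are neighbours in the mouse gene order, with Fap, a peptidase of the Dpp4 family, on the other side of Gcg. The genes on both sides of the hormone genes were compared in the same fit, using RefSeq gene order only. Fap differed by -0.18 (SE 0.17) and Dpp4 by -0.12, so the neighbours on either side of Gcg did not pass while Gcg did. The next genes beyond Fap, Ifih1 (-0.64) and Gca (-0.36), were not called either, and Tbr1 and Slc4a10 beyond Dpp4 had no tested probe. Around Gip, the differences were -0.04 for Igf2bp1, -0.33 for B4galnt2 and 0.13 for Gngt2 on one side. They were -0.05 for Snf8, 0.05 for Ube2z and 0.09 for Atp5g1 on the other. The groups overlapped for all 10 of these tested neighbours.

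**Figure D3:**
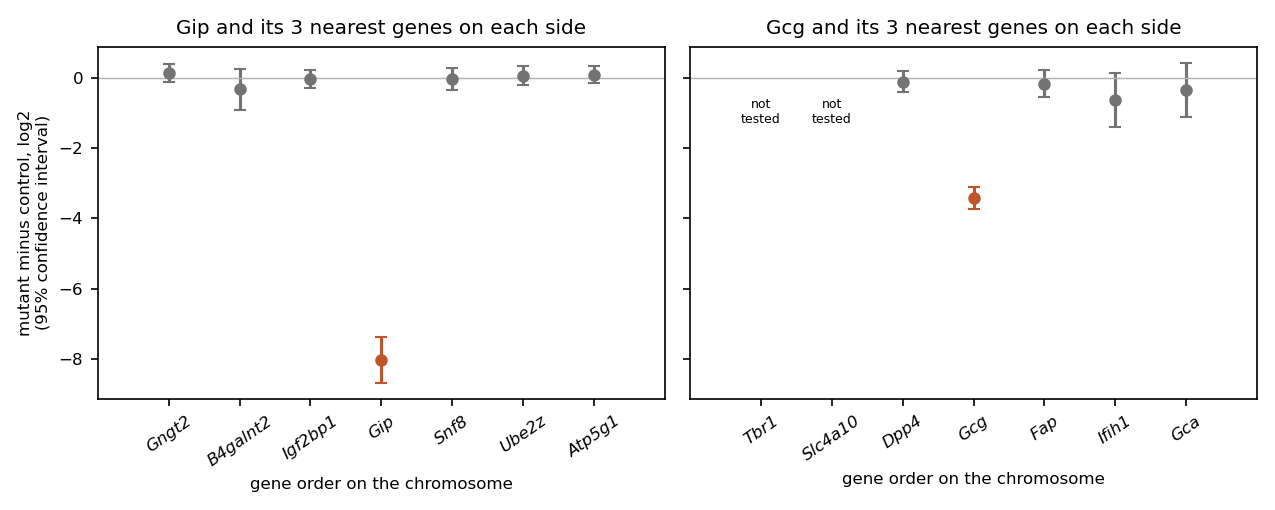
Difference of mutant minus control (log2, 95% confidence interval) for Gip and for Gcg with 3 genes on each side in chromosomal order, not to distance. Each hormone gene lies far below 0, and the intervals of its tested neighbours include 0. The intervals of Ifih1 and Gca are wide, reaching down to -1.40 and -1.13. The Gip value rests in part on mutant arrays not well above background.

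The promoters of the hormone genes are shown because both genes moved while their neighbours did not pass. Each is the 250 bases before the RefSeq transcription start on GRCm38.p6, in the sense of the gene. Capitals mark matches to the motif of GATA factors, written AGATAA. They also mark the homeodomain core, written TAAT, and the TATA box, written TATAAA. A further motif, GTTGCC, is one arm of the X-box bound by RFX factors. The TATA box was searched on the sense strand and the other motifs on both strands. In both windows the matches did not overlap each other. The Gip promoter is chr11:96024295-96024544 on the plus strand.

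Gip promoter: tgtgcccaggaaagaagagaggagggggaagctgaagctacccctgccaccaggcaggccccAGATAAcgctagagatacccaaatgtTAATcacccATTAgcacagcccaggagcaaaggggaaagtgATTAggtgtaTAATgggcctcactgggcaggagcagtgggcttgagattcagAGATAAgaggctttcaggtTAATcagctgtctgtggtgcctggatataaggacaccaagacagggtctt

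The Gcg promoter is chr2:62483654-62483903 on the minus strand.

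Gcg promoter: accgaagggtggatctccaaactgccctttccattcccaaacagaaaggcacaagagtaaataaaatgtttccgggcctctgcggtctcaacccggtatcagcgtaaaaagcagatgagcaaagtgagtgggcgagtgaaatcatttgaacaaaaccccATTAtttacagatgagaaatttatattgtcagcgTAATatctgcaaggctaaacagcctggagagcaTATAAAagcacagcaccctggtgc

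The Gip window held 2 AGATAA matches, at -188 to -183 and -69 to -64 from the start, and 5 TAAT matches. The Gcg window held 2 TAAT matches and a TATAAA at -24 to -19. Neither held GTTGCC, and Gip held no exact TATAAA. The Gip window has TATAAG near the start, which the search for exact letters does not count. Among all 32851 promoter windows of that table, 9.99% held AGATAA at least once and 0.938% held it 2 or more times. TAAT occurred in 54.9% of windows, 2 or more times in 30.8% and 5 or more times in 5.54%. GTTGCC occurred in 10.4% and TATAAA in 7.59%. The Dpp4 window held 1 AGATAA, 4 TAAT and 1 TATAAA, while the Glp1r and Glp2r windows held no match to any of the 4 motifs. These are letter matches in a window and show no binding.

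Other ligands of the glucagon superfamily were read from 4 listed genes, all tested. Sct, which encodes secretin, was called lower, and 3 had positive differences that did not pass. Sct had a mean level of 6.42 ± 0.06 in controls and fell to 5.42 ± 0.20 in mutants (SD, n = 4 each). It differed by -0.997 (limma, SE 0.11, adjusted p = 0.0437), with every mutant below every control. The call was lost when control 1, 2, 3 or 4 or mutant 2, 3 or 4 was left out, with adjusted p up to 0.263, while the difference stayed between -1.03 and -0.92. The other class B hormone receptors, 9 of 12 tested, showed differences of -0.24 to 0.29 (median 0.058) with none called. Among the Dpp4 family and related peptidases, all 13 were tested, the differences were -0.31 to 0.23 (median -0.006) and none was called. Over all 25330 genes tested, 13 were called lower and 1 higher, and the median difference was 0.031.

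Of 19 listed regulators of Gip and Gcg transcription, 18 were tested, 2 were called lower and the median difference was 0.002. One of these was Isl1, a LIM-homeodomain factor of endocrine cells. It read -4.04 ± 0.18 (SD, n = 4) in controls and was well above background on no mutant array. By the same bound as for Gip, it was at least 3.19-fold lower in mutants (limma adjusted p = 0.00146, resting on those dim mutant values). That bound also holds for this background correction only: with normexp the fitted difference of Isl1 was smaller, at -0.64. Neurog3, the endocrine progenitor factor whose promoter drove Cre, differed the other way, by 0.76 (SE 0.10, limma adjusted p = 0.082), and Pax4 by 0.70 (SE 0.14, limma adjusted p = 0.411). For both genes every mutant was above every control, and neither passed. For Neurog3 the Cre transgene moves with the group, and its part in the value was not tested. Pax6, a homeodomain factor known to act on both hormone genes, was too dim to test by either of its probes.

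Prohormone processing genes encode the enzymes that mature GIP and the proglucagon peptides, with proteins that assist or inhibit them. All 6 were tested with none called and a median difference of 0.046. Pcsk1, the convertase that yields GLP-1 and GLP-2, differed by 0.11, and Pcsk2, which yields glucagon, by -0.08. Pam, which amidates peptide ends, read -0.87, -0.41, -0.72 and -0.58 in controls 1 to 4 and 0.73, 0.72, 0.73 and -0.69 in mutants 1 to 4. Mutant 4 lay within the controls and the other mutants above them. The difference was 1.02 (SE 0.32, limma adjusted p = 0.826), and without mutant 4 it was 1.37 with an adjusted p of 0.0233. Pam was singled out after its values were seen.

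Nutrient sensing genes of K and L cells gave 11 of 16 tested and none called, with a median of -0.07. Their differences were -1.35 to 0.15, and the lowest came from a dim gene, well above background on 3 control arrays and 1 mutant array. The mean log2 level of the list was -1.21 to -1.05 in controls and -1.53 to -1.33 in mutants, with every mutant below every control. That mean includes the dim gene, whose values on the other mutant arrays were not well above background. The separation of the list means rests in part on that gene and is not shown for the list as a whole. Genes of receptor signalling through cAMP gave 15 of 17 tested and none called, with a median of 0.063. The groups did not overlap for Crem, a cAMP-responsive factor (-0.25, SE 0.089), or for Arrb1, which encodes beta-arrestin 1 (0.24, SE 0.117), and neither passed. Reported mediators of GLP-2 in the gut wall gave 10 of 10 tested and none called, with a median of -0.106 that was 0.003 without mutant 1. Areg, an EGF receptor ligand, read -3.29 ± 0.13 in controls and -3.85 ± 0.33 in mutants (SD, n = 4 each), with no overlap. Its difference of -0.56 (SE 0.165) did not pass. Over all genes, 4.65% had groups that did not overlap.

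**Figure D4:**
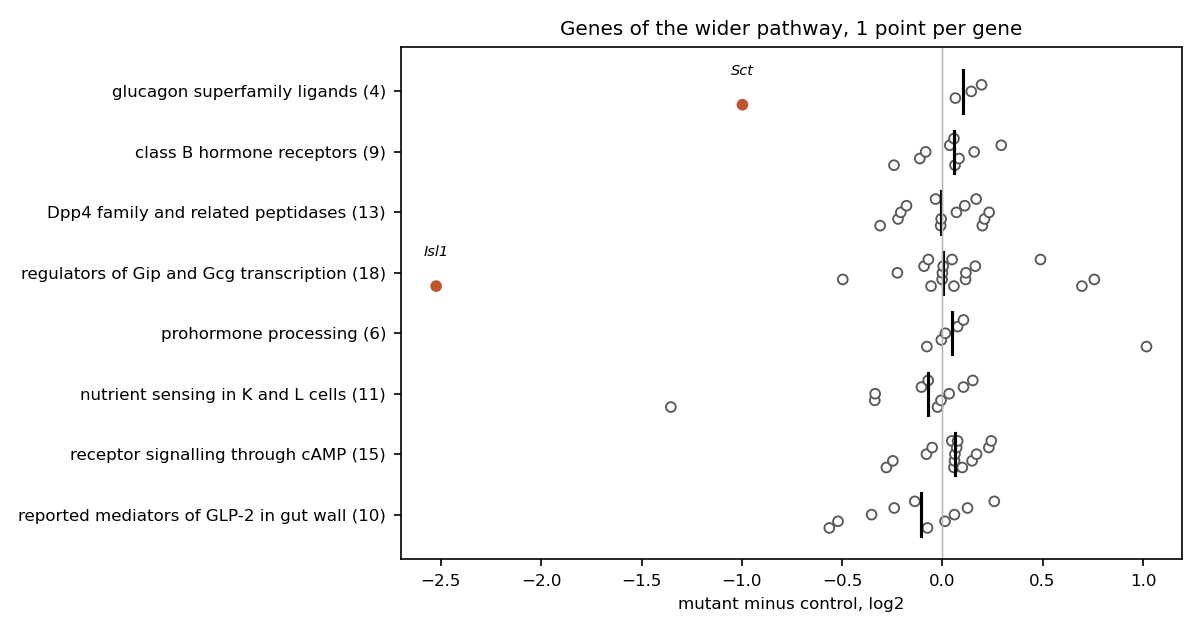
Difference of mutant minus control (log2) for tested genes of the lists around the incretin genes, 1 point per gene, with a black bar at the median over all tested genes and their number in brackets; genes not reported here are not plotted. Coloured points passed the adjusted threshold over all tested probes: Sct and Isl1 lie below 0, and the other points did not pass.

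The genes whose profile over the 8 arrays was closest to the hormone genes were found by the root mean square distance between values minus their control mean. For Gcg the 4 closest were Nts (0.43), Isl1 (0.69), Cck (0.71) and Sst (0.80), in log2 units. For Gip the 5 closest were Ghrl (2.30), Sst (2.52), Nts (2.89), Isl1 (3.91) and Cck (3.94). Ghrl, Sst, Nts and Cck encode the gut hormones ghrelin, somatostatin, neurotensin and cholecystokinin. The distances of Isl1, and all those from Gip, rest in part on mutant values not well above background. Their sizes and ranks are therefore not measured exactly. The mutant level as a share of the control level was 3.45% for Ghrl, 4.36% for Sst, 6.34% for Nts and 17.8% for Cck. Gcg, at 9.32%, lay between Nts and Cck. These distances reward a shared drop between the groups and are a description of 8 arrays.

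Markers of the endocrine lineage and of other tissues were read beside the fall of Gip and Gcg. The 8 pan-endocrine markers, all tested, had a mean log2 level of 0.91 to 1.00 in controls. It was 1.06, 0.61, 0.51 and 0.69 in mutants 1 to 4, and mutants 2 to 4 lay below every control. Scg2, a granin, was called lower (-1.13, limma adjusted p = 0.0161). That call was lost without control 1, 2 or 4 or mutant 2 or 3, with adjusted p up to 0.115. Scgn, which encodes the calcium-binding protein secretagogin, differed by -1.06 with every mutant below every control (limma adjusted p = 0.309). The other differences were -0.27 for Chga, -0.24 for Scg3, -0.005 for Cpe, 0.03 for Chgb, 0.14 for Syp and 0.49 for Neurod1. None of these passed, and Neurod1 read -2.63, -4.32, -4.19 and -3.93 in mutants 1 to 4. The islet markers matter here because alpha cells express Gcg. Of 11, 6 were tested and none was called, and their mean log2 level was 0.06 to 0.22 in controls and -0.42 to -0.09 in mutants. Iapp, which encodes the islet peptide amylin, differed most, by -1.74 with every mutant below every control (limma adjusted p = 0.091, and 0.0259 with normexp). Other differences were -0.43 for Ins1, -0.10 for Ins2, 0.11 for Mafa and 0.26 for Ttr. The pancreatic acinar markers, 5 of 8 tested, ran the opposite way, at -4.45 to -3.11 in controls and -2.24 to -0.15 in mutants, and none was called. Amy2a5 and Cela2a, which encode an amylase and an elastase, were higher in every mutant than in every control, and both were called higher with the slide row as a block. Amy2a5 was also called with normexp, and Cela2a without mutant 4. Cela2a was well above background on no control array, so it could be tested only through the mutants. Amy2a5 was not well above background on control 2. The control means of the list rest in part on those values, and the size of either rise is not measured exactly. The part of these acinar markers in the values of Gcg was not tested. The 8 smooth muscle and stroma markers, beside which Glp2r is read, were at 4.10 to 4.58 in controls and 4.45 to 4.81 in mutants. None of them was called, and none of the 9 enteric neuron and glia markers was.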

How the data were processed

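Per the labels' protocols, 100 ng of total RNA extracted with TRI-reagent was labelled in a single-colour protocol. The 8 arrays lay on 1 slide and, per the file headers, were read by the authors with Agilent Feature Extraction 10.10.1.1 and deposited spot intensity values on a linear scale, background-corrected and detrended within each array but not normalised between arrays. A second deposited table of linear intensity has no stated processing; its columns share the same quartiles, and it served as an alternative. From the log2 processed intensity, the array's own 75th percentile (log2, non-control spots) was subtracted. Outlier spots (117 to 157 per array) were dropped and spots of a probe averaged. A probe was well above background where 50% or more of its spots were, and probes reaching this on 4 or more arrays were tested. The groups were compared over these 35472 probes by limma 3.58.1 (R 4.3.3, no covariates, two-sided), with Benjamini-Hochberg adjustment over all of them and a threshold of 0.05. For counts over genes the brightest tested probe was kept. Some probes were not well above background on an array of their dimmer group. Values of that group under the array's lowest signal well above background were then raised to it. The fold is a bound on the ratio of group means in this processing. The number of arrays limits the precision. The code was tested on simulated data. Alternatives covered background correction, normalisation, filters, blocks, array weights and leaving out each array. Same-numbered arrays deviated with correlations of -0.087 to 0.100, so numbers were not taken to pair samples.

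The members and gene lists were chosen with earlier results of these data known. Named are all members, called list members, non-overlapping members (up to 4) of lists with no call, Rfx6 and the 5 genes most like each hormone gene; the exceptions are stated beside their values or serve as markers and neighbours. Some results that this rule would name are not reported here. Descriptions of mutants 2 to 4 name other Rfx genes and were read as entry errors. Promoter sequences are from RefSeq (GRCm38.p6), where 5 of the 6 members were found, and probe sequences and mm9 positions are from the array files.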

Additional observations from a re-analysis of the deposited data

Results flagged for a closer look

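In 50 groups of 4 arrays tested for a value far from the others, 2 stood out, where chance gives about 1 in 20 groups. The Rfx6 probe read -5.52 in mutant 1, against -3.37 to -3.01 in the other mutants. That mutant 1 value was not well above background. Pam read -0.69 in mutant 4, against 0.72 to 0.73 in the other mutants. Pam was singled out after its values were seen, so the chance rate does not cover its flag.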

How the results depend on the processing

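Gip was lower and called in all 18 alternatives that could test it, with differences of -8.32 to -5.59 and adjusted p of 2.85e-08 to 0.00131; the filter requiring signal on all 8 arrays removed it. Gcg was lower and called in all 19, at -3.49 to -3.13 with adjusted p of 7.51e-07 to 0.00138. The Gip change minus the Gcg change ranged from -4.60 to -2.44, and its exact permutation p, 0.0286 throughout, is the smallest possible and does not measure stability. None of Gipr, Glp1r, Glp2r and Dpp4 passed in any alternative. Signs of values near 0 turned: Dpp4 to 0.0039 with array weights, and the intron-spanning Glp2r probe to 0.019 with normexp and 0.011 with array weights. Leaving out 1 array gave -0.076 to 0.039 for Glp2r, -0.077 to 0.013 for its intron-spanning probe, -0.019 to 0.22 for Glp1r and -0.74 to 0.10 for Rfx6. Of all probes, 13 were called lower and 1 higher. The higher count was 6 with normexp, 2 with the deposited table, 0 with signal required on all arrays, 4 with the slide row as a block, 10 with array weights, and 0 to 8 without 1 array. The lower count was 29 with array weights and 9 to 14 without 1 array. With the replicate number as a block, 7 were called lower and 0 higher, Gip and Gcg among them, while Isl1 had an adjusted p of 0.101. Neurog3 passed in 3 of 19 alternatives, and Sct missed the threshold in 10 of 19, with adjusted p up to 0.358, and Scg2 in 7 of 19, up to 0.199. The causes of these moves were not tested. Low signal over background limits the second Glp1r probe and the mutant levels of Gip and Isl1. It also limits the control levels of Cela2a and the Rfx6 level of mutant 1.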
